A study of Mus musculus with 63 samples.

Results

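The 40 genes described here are interferon-stimulated genes, named as a list of mouse symbols, and all 40 were found, 1 identifier each, among the 56980 genes of the count tables. Interferons are secreted warning signals against viruses. Type I interferons bind the receptor pair Ifnar1 and Ifnar2 and interferon gamma binds Ifngr1 and Ifngr2, and both act through Janus kinases on transcription factors, among them Stat2, which works with Irf9. The induced genes sense foreign nucleic acid, block translation and replication of viruses, conjugate the ubiquitin-like protein Isg15, and feed back on the pathway itself. In the brain they are best known in microglia and endothelial cells, with a low level in the absence of infection.

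Cells were sorted from the cortex of female C57BL/6J mice, 12 weeks old at arrival, 5 weeks after a full-thickness burn of 7 to 8% of the body surface, made with heated brass on the right flank, or after a sham procedure in which the flank was only shaved. All mice of both groups had received bilateral injections of AAV5-CamKII-eGFP and AAV1-mDlx-mRuby2 into the primary motor cortex, so no group was free of a viral vector. Cells labelled CaMKII positive neurons (eGFP alone) and CaMKII-mDlx double-positive neurons (eGFP and mRuby2) came from the motor cortex, whereas ACSA2-positive astrocytes and CD11b-positive microglia came from the cortex behind it, so in the contrasts of a motor cortex sort with astrocytes or microglia, population and region cannot be told apart. Total RNA was sequenced in 58 libraries from 17 mice that entered the comparisons, in 3 sequencing batches, and burn and sham were represented by 4 and 6 mice (CaMKII positive), 9 and 7 mice (double-positive), 9 and 8 mice (astrocytes) and 8 and 7 mice (microglia).

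The libraries held 13346143 to 134703744 counts. Marker genes went against the labels of the eGFP sorts, which the labels call neurons, and these are named below only by their sort, as CaMKII positive and double-positive libraries. In CaMKII positive libraries the summed astrocyte markers ran from 13683 to 25487 CPM (counts scaled to a common library total), endothelial markers from 3599 to 10134 and microglial markers from 483 to 2077, against 22.8 to 397 for excitatory neuron markers. Double-positive libraries held 16926 to 31753 CPM of microglial markers and at most 3.75 CPM of inhibitory neuron markers. ACSA2-positive and CD11b-positive libraries were led by astrocyte and microglial markers. In such bulk samples, fewer cells of a type and less RNA per cell cannot be told apart.

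Promoter sequences were taken from RefSeq (GRCm38.p6; 250 bases before to 50 bases after an annotated start) and were searched for GAAANNGAA, the core of the interferon-stimulated response element bound by complexes with Irf9, and for TTCNNNGAA, the core of the gamma-activated site of the interferon gamma response. Both strands were searched. The second motif is its own reverse complement, and the 2 motifs can share letters. Of the 40 members, 29 had at least 1 promoter, and 17 of them (58.6%) held GAAANNGAA, against 2638 of all 27025 genes (9.76%). TTCNNNGAA was found in 8 of the 29 (27.6%), against 9.55% of all genes. Of the 32 matches to GAAANNGAA in the members, 22 began within 150 bases before the start. Per promoter, 17 of 36 and 8 of 36 held the motifs in the members, against 8.56% and 8.30% of all promoters.

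Some members named below, such as Cmpk2, Irf7, Herc6 and Oasl2, held no GAAANNGAA. 5 promoters, picked among those with a match, show how the first motif lies in other members named below, with GAAANNGAA on either strand in capitals. They are Ifit3 (chr19:34583279-34583578, plus strand) and its near copy Ifit3b (chr19:34607707-34608006, plus strand), Isg15 (chr4:156200769-156201068, minus strand), Rsad2 (chr12:26456403-26456702, minus strand) and Ifitm3 (chr7:141010695-141010994, minus strand).
Ifit3: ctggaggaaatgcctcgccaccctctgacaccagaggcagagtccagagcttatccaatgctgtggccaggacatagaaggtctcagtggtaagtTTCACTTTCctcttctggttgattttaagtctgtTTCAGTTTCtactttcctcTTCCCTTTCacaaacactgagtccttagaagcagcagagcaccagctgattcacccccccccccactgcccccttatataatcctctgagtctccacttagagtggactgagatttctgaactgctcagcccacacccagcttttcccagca
Ifit3b: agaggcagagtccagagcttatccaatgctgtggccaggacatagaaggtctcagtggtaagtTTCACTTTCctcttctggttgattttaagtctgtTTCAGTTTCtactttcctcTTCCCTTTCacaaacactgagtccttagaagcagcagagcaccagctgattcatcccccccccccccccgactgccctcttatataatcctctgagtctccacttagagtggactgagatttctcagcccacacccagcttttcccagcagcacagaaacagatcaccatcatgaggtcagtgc
Isg15: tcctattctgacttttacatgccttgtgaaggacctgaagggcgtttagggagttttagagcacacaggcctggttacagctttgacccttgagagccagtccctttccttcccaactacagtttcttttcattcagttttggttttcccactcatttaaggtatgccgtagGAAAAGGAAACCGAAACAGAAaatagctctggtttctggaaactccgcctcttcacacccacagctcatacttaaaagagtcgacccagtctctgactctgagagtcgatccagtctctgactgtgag
Rsad2: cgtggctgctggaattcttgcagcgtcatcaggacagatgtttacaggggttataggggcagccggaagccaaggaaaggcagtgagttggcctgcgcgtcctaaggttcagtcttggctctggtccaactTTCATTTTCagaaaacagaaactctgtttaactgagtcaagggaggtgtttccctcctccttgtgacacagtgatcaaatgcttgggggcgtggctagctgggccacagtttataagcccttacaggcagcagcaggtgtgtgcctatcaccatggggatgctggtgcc
Ifitm3: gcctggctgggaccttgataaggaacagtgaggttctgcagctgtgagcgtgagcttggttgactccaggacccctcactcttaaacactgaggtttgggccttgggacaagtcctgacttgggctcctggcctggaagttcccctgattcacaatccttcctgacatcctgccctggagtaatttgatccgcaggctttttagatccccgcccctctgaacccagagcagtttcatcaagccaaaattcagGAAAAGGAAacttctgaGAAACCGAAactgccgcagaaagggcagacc
Ifit3 and Ifit3b carried the same 3 matches in the same order, 32 bases further upstream in Ifit3b, and 201 of 268 bases were identical when the windows were laid over each other at that shift without gaps. In Isg15 the 3 matches overlapped in 1 run, with first bases at −78, −72 and −66 from the start. In Ifitm3 both matches lay after the start. Irf1 had 2 promoters, and neither held GAAANNGAA. The one shown (chr11:53769764-53770063, plus strand) held 1 TTCNNNGAA, in capitals, with its first base at −90, and the other (chr11:53770223-53770522, plus strand) held none.
Irf1: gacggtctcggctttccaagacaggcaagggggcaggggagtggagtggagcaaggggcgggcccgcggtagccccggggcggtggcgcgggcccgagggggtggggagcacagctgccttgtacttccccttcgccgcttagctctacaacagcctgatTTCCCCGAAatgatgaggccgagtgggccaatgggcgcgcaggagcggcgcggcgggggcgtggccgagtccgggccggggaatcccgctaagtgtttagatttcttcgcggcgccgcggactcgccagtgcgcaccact

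Levels of the members differed more between the 4 populations than between burn and sham mice. Each library was summarised by the mean of log2(CPM + 0.5) over the 40 members, a level and not a difference. This mean was 5.43 ± 0.53 (SD, n = 10) for CaMKII positive libraries, 4.16 ± 0.46 (SD, n = 16) for double-positive libraries, 3.62 ± 0.37 (SD, n = 15) in microglia and 2.48 ± 0.38 (SD, n = 17) in astrocytes. All 10 CaMKII positive libraries (4.41 to 6.02) and all 16 double-positive libraries (3.57 to 5.11) stood above all 17 astrocyte libraries (1.59 to 3.14), whereas neighbours in the order overlapped: CaMKII positive with double-positive, double-positive with microglia (3.02 to 4.30), and microglia with astrocytes. By mean CPM, CaMKII positive libraries were the highest population for 32 members and double-positive libraries for 8, and astrocytes were the lowest for 33.

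**Figure D1:**
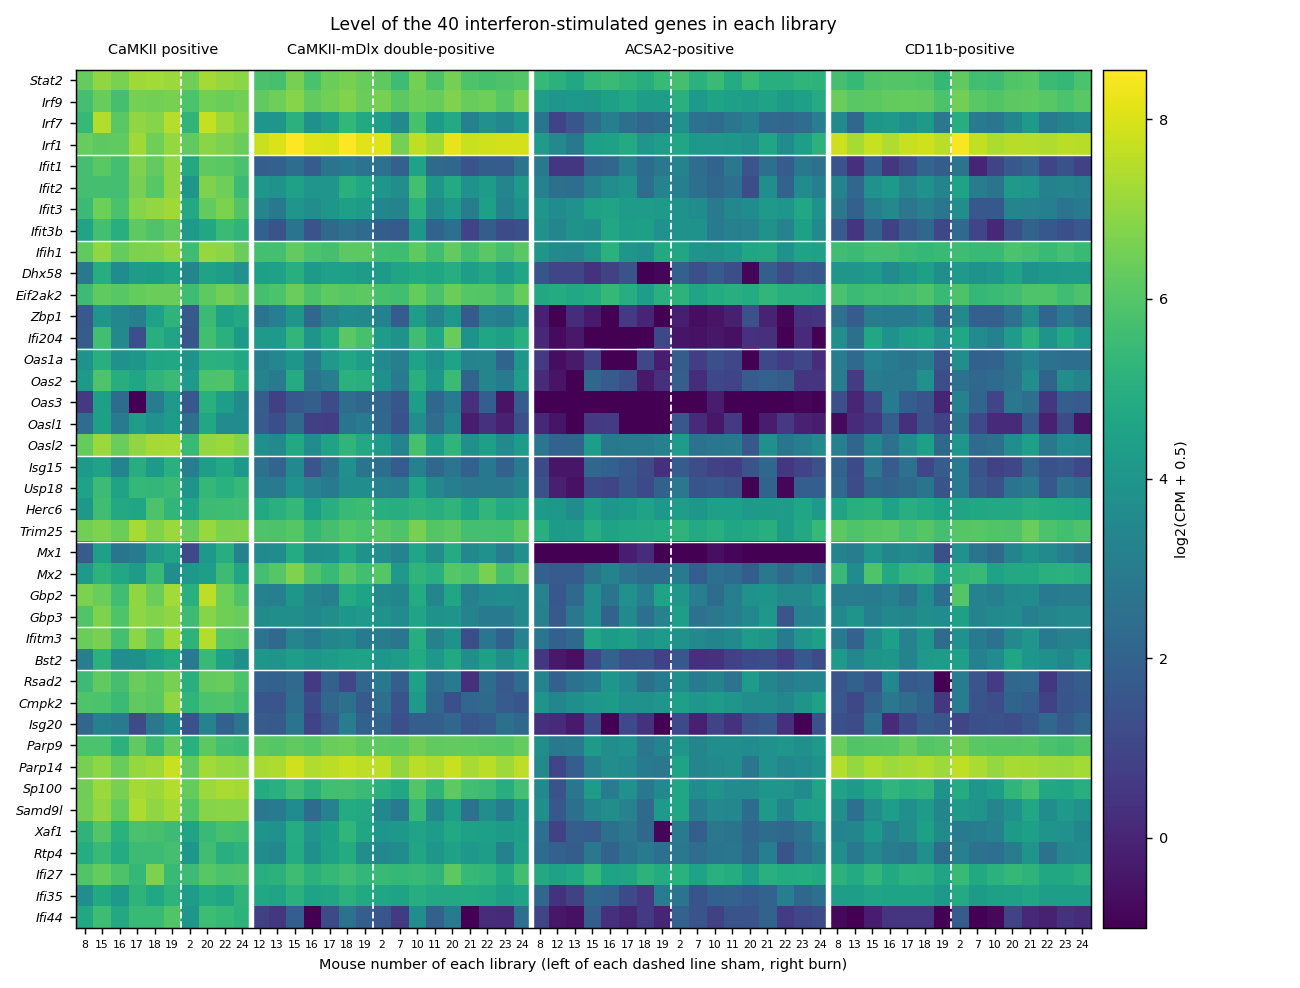
Level of each of the 40 members (rows, grouped by role) in each of the 58 libraries (columns, numbered by mouse), as log2(CPM + 0.5) on the colour scale, with sham left and burn right of each dashed line. The CaMKII positive block is the brightest for most members, Oas3 and Mx1 are dark in the astrocyte libraries, and the sham and burn columns of a population look alike.

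Per kilobase of exon, so that genes can be compared, Ifitm3, a membrane protein that blocks viral fusion, was the highest member in CaMKII positive libraries at 134 ± 64.5 CPM per kilobase (SD, n = 10) and in astrocytes at 20.2 ± 9.13 (SD, n = 17). Ifit3, of the IFIT family, was next in CaMKII positive libraries at 48.3 ± 22.1 CPM per kilobase. Irf1, a transcription factor of both interferon responses, was the highest member in double-positive libraries at 62.7 ± 17.7 CPM per kilobase (SD, n = 16) and in microglia at 50.7 ± 11.7 (SD, n = 15). Ifi27, a small mitochondrial and membrane protein, was second in double-positive libraries (28.6 ± 6.51), microglia (22.0 ± 4.03) and astrocytes (19.4 ± 3.73). These spreads overlapped between the leading members, except that Irf1 exceeded Ifi27 by more than both SDs in double-positive libraries and microglia.

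The burn question was asked first within each population. After burn edgeR called 0 of 40 members in each of the 4 populations, where a call needed p.adj ≤ 0.05 over all genes tested and an absolute log2FC ≥ 1. The background was equally empty, with 0% called of 28107 genes for CaMKII positive libraries, 0% of 26707 for the double-positive sort, 0% of 27930 for astrocytes and 0% of 26079 for microglia. DESeq2 also called 0 members in every population, while calling 3, 2, 27 and 80 of all genes in that order. At an unadjusted p under 0.05 there were 1, 1, 4 and 0 members, or 2.5%, 2.5%, 10% and 0%, against 3.90%, 7.01%, 10.7% and 7.81% of all genes. The burn and sham ranges overlapped for all 40 members in all 4 populations. Over all genes tested the ranges were apart for 0.37% in CaMKII positive libraries, 0% in double-positive libraries, 0.0143% in astrocytes and 0.0153% in microglia.

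**Figure D2:**
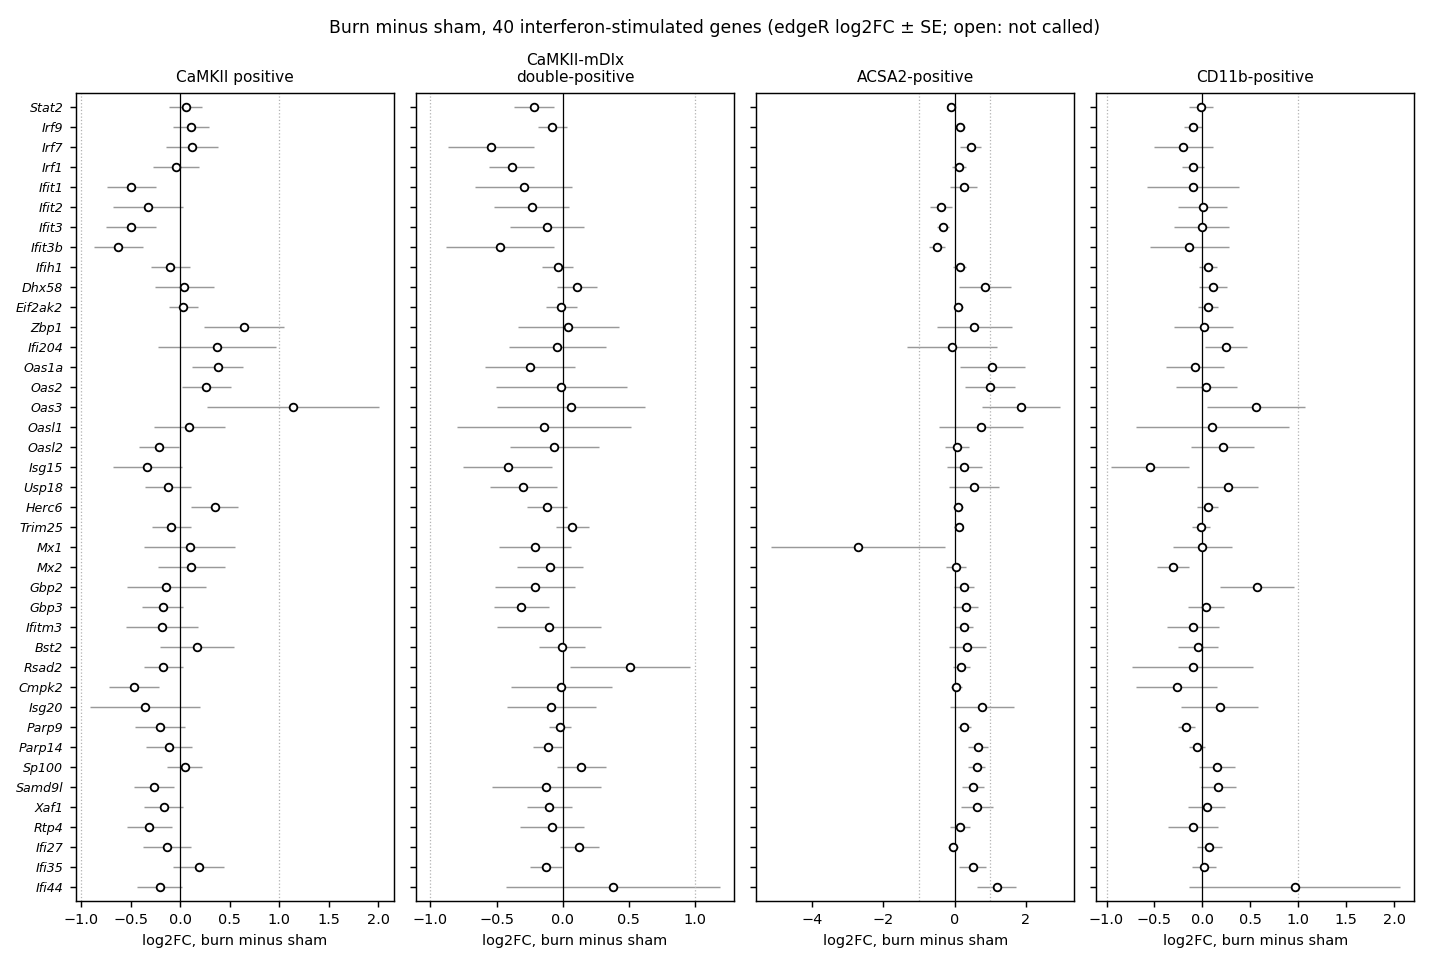
Log2FC of burn minus sham for each member, with its standard error, in the 4 populations; open points did not pass the test and dotted lines mark a log2FC of −1 and 1. All 160 points are open, and most lie between the dotted lines.

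In CaMKII positive libraries the median log2FC over the members was −0.11, against 0.02 over all genes, and 17 of 40 were above 0, as were 14555 of 28107 genes. All 4 IFIT genes, a family of antiviral proteins of which Ifit1 binds RNA lacking host cap methylation, were below 0, from −0.62 to −0.33. Ifit3b had the smallest p: its levels were 17.3, 26.0, 45.3 and 37.7 CPM in the burn mice 2, 20, 22 and 24, and 23.3 to 73.4 CPM (median 55.6) in the sham mice. Burn mouse 2 was the lowest library and the others fell inside the sham range. The log2FC of Ifit3b was −0.62 ± 0.25 (SE), with p.adj = 1.00 in edgeR. Ifit1 had 26.8, 72.5, 68.7 and 56.2 CPM in the same burn mice and 51.2 to 126 CPM (median 72.0) in sham, with a log2FC of −0.49 ± 0.24. Ifit3 had 26.3, 76.5, 102 and 61.3 CPM against 45.6 to 147 CPM (median 99.6), with a log2FC of −0.50 ± 0.25. For both genes burn mouse 2 was the lowest library and the other 3 burn mice overlapped with sham. Mice 2 and 8, the 2 mice of batch 1, had the lowest mean level of the members, 4.41 and 4.79. Mouse 2 also had the lowest sums of endothelial (3599 CPM) and excitatory neuron markers (22.8 CPM) of these libraries. Mouse 8 had the lowest blood leukocyte (13.6 CPM) and border macrophage sums (1.59 CPM) and the highest oligodendrocyte sum (3823 CPM). The part of these cells was not tested. Mouse 2, the deepest library at 134703744 counts, was lowest for 25 of 40 members (5.85% of 17584 genes), and sham mouse 19 was highest for 16 (7.52% of genes). The median over the members in batch 3 alone was 0.02, against −0.03 for all genes.

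In double-positive libraries the median log2FC was −0.10, against −0.0039 over all genes, and 8 of 40 members were above 0, as were 13153 of 26707 genes. The 4 transcription factors were below 0, from −0.54 to −0.08. Irf1 ranged from 94.4 to 298 CPM (median 230) in the 9 burn mice and from 218 to 375 CPM (median 274) in the 7 sham mice. Burn mice 7, 10, 11 and 21 lay under every sham library, and the other burn mice overlapped with them. The log2FC of Irf1 was −0.39 ± 0.17, with p.adj = 0.708 in edgeR, and its log2FC was 0.07 with all deposited libraries, which adds burn mouse 3 (39192030 counts) and sham mouse 8 (331215 counts). Irf7, the factor that amplifies type I interferon production, ranged from 8.66 to 54.7 CPM (median 16.7) in burn and from 13.4 to 39.96 CPM (median 20.0) in sham, with a log2FC of −0.54 ± 0.33. Gbp3, an interferon-induced GTPase, ranged from 6.93 to 23.6 CPM (median 11.8) in burn and from 10.6 to 17.1 CPM (median 12.8) in sham, with a log2FC of −0.31 ± 0.21. In both genes burn mouse 10 was the highest library although the median of the burn group was the lower one. Batch 1 held only burn mice in this population and so added nothing to these differences, and in batch 3 alone the median over the members was −0.24, against −0.0029 for all genes.

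Double-positive mouse 10, a burn mouse of batch 1, stood apart. It had the highest library level for 19 of 40 members, while it was highest for 12.3% of the 15637 genes with a mean of at least 1 CPM, and its mean level of the members was 5.11 against 3.57 to 4.75 in the other libraries. Its summed endothelial markers (590 CPM), blood leukocyte markers (49.99 CPM), border macrophage markers (329 CPM), oligodendrocyte markers (419 CPM) and excitatory neuron markers (63.2 CPM) were also the highest of the 16 libraries. Over the 16 libraries the mean level had a Pearson r of 0.75 with the log2 sum of excitatory neuron markers. For inhibitory neuron, oligodendrocyte and border macrophage markers r was 0.48, 0.37 and 0.37. For endothelial and blood leukocyte markers it was 0.31 and 0.23, and for astrocyte and microglial markers −0.13 and −0.21. Their part in the level of the members was not tested.

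In astrocytes the median log2FC was 0.26, against 0.05 over all genes, and 33 of 40 members were above 0, as were 15585 of 27930 genes. Sp100, a nuclear body protein, ranged from 11.6 to 23.8 CPM (median 14.7) in the 9 burn mice and from 2.32 to 18.4 CPM (median 9.18) in the 8 sham mice. Parp14, a mono-ADP-ribosyltransferase, ranged from 6.16 to 22.9 CPM (median 11.7) in burn and from 1.49 to 12.8 CPM (median 7.97) in sham. In both genes the lowest libraries were sham and the highest were burn, with wide overlap. The log2FC was 0.61 ± 0.25 for Sp100 and 0.66 ± 0.28 for Parp14, both with p.adj = 0.458 in edgeR. Ifit3b went the other way, with 7.34 to 21.2 CPM (median 11.1) in burn, 9.99 to 26.1 CPM (median 14.1) in sham and a log2FC of −0.50 ± 0.21 at p.adj = 0.458. Ifi44 was the 4th member with an unadjusted p under 0.05, at a log2FC of 1.18, and Mx1 had the most negative fitted value, −2.72, on at most 16 counts in any astrocyte library. All 5 genes of the oligoadenylate synthetase family were above 0, with a median of 0.99 and the highest value of any member, 1.87, for Oas3, on at most 11 counts in any astrocyte library.

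Endothelial markers moved with the members across the astrocyte libraries. Their sum was 142 and 309 CPM in sham mice 12 and 13 of batch 2, which had the lowest mean level of the members (1.59 and 1.77) and were the lowest library, ties left out, for 21 of 40 members (12.6% of 16172 genes), and 1361 CPM in burn mouse 2, which had the highest mean level (3.14). Sham mouse 18 of batch 3 had 208 CPM of endothelial markers at a mean level of 2.28. Mouse 13 also had the highest sums of excitatory neuron markers (1491 CPM) and oligodendrocyte markers (746 CPM) of the 17 libraries. Over the 17 libraries the mean level and the log2 sum of these markers had a Pearson r of 0.88, a description of libraries that differ in treatment and batch. The mean of the members was 2.62 ± 0.30 (SD, n = 9) in burn and 2.31 ± 0.42 (SD, n = 8) in sham. In batch 3 alone the median log2FC of the members was 0.09, against 0.02 for all genes, and the log2FC of Parp14 was 0.29. Border macrophage and blood leukocyte markers had an r of 0.63 and 0.56, and astrocyte markers −0.59. For excitatory neuron, inhibitory neuron and oligodendrocyte markers r was −0.47, −0.42 and −0.42, and for microglial markers 0.07. The part of these cells in the values was not tested.

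In microglia the median log2FC was 0.01, against 0.0023 over all genes, and 21 of 40 members were above 0, as were 13171 of 26079 genes. Parp9, the partner of an E3 ligase in interferon signalling, ranged from 52.9 to 87.9 CPM (median 65.2) in the 8 burn mice and from 62.1 to 81.3 CPM (median 67.1) in the 7 sham mice, with a log2FC of −0.17 ± 0.09. Mx2, a dynamin-like GTPase, ranged from 22.5 to 43.0 CPM (median 31.4) in burn and from 11.9 to 59.4 CPM (median 39.5) in sham, with a log2FC of −0.30 ± 0.17. Gbp2, a GTPase of the same family as Gbp3, ranged from 6.91 to 63.9 CPM (median 8.51) in burn and from 4.93 to 12.0 CPM (median 7.50) in sham. One library, burn mouse 2, stood far above the rest in Gbp2, and the groups overlapped in all 3 genes. The log2FC of Gbp2 was 0.57 ± 0.38 with mouse 2 and 0.24 without it. This library was highest for 20 of 40 members, against 11.6% of 14771 genes, with a mean level of 4.30 against 3.02 to 4.07, and its blood leukocyte markers (137 CPM) were the highest of the 8 burn libraries, with sham libraries at 23.1 to 158 CPM. Sham mice 13 and 19 were each the lowest library, ties left out, for 11 of 40 members (8.82% and 15.3% of genes). Mouse 13 had the lowest sums of border macrophage (83.6 CPM) and blood leukocyte markers (23.1 CPM). Over the 15 libraries the mean level had an r of 0.63 with the leukocyte markers and −0.56 with the microglial markers. The part of these cells was not tested.

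**Figure D3:**
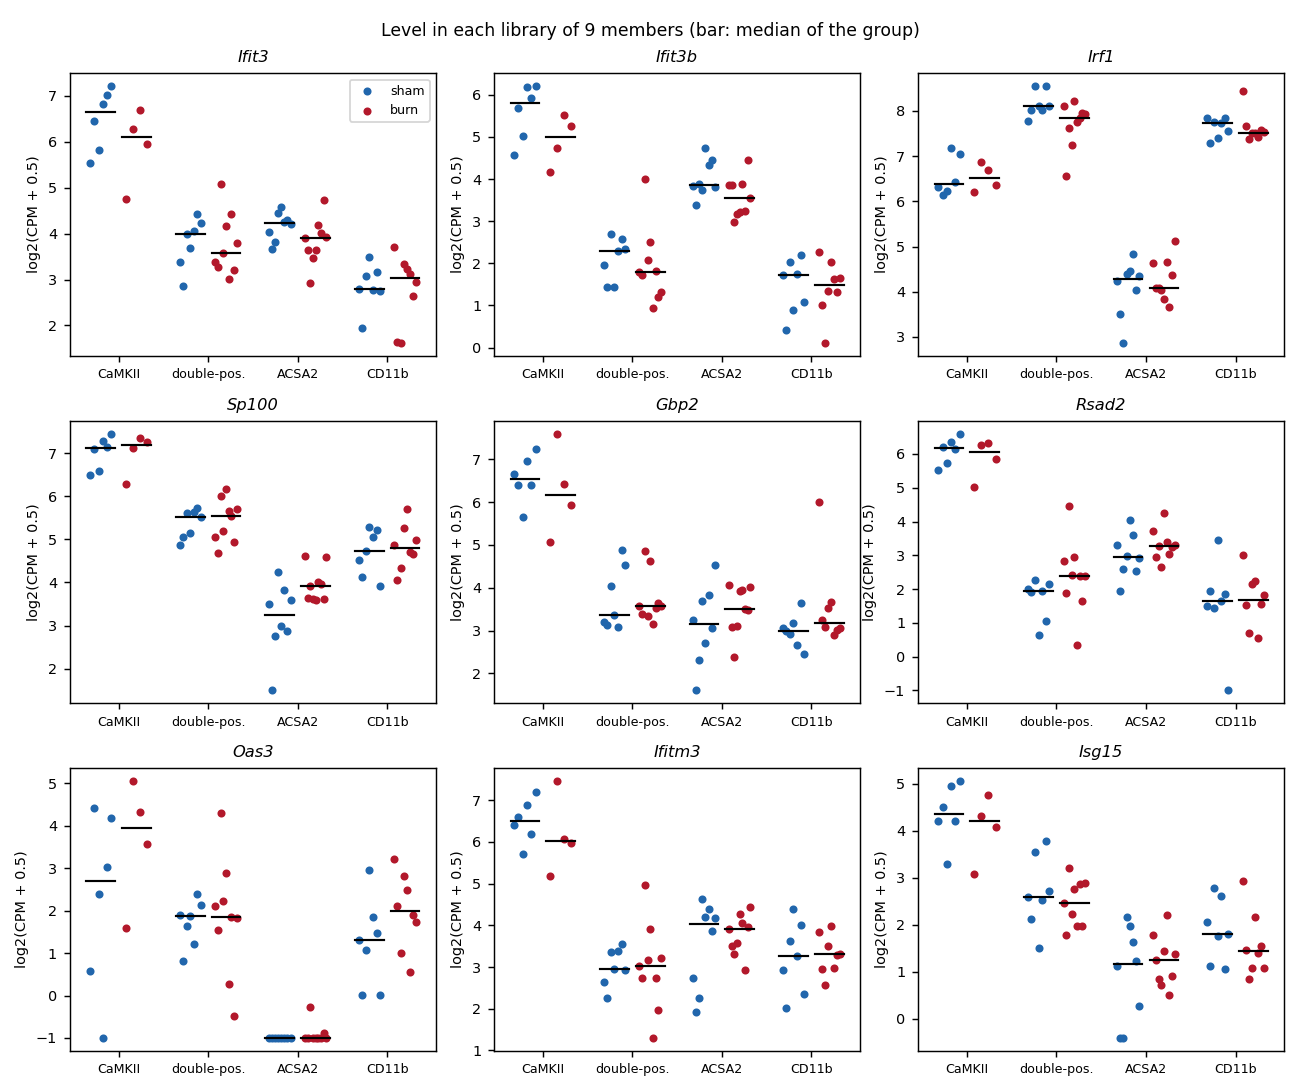
Level of 9 members in every library as log2(CPM + 0.5), sham in blue and burn in red, by population, with the median of each group as a bar. Burn and sham overlap in each panel, CD11b-positive mouse 2 stands alone in Gbp2, and nearly all ACSA2-positive libraries lie at the bottom in Oas3.

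The interaction of burn with population called no member. For microglia minus astrocytes 0 of 40 were called (0% of all 33150 genes), with 1 member at an unadjusted p under 0.05, Parp14, whose difference of log2FC was −0.70 ± 0.29 (p.adj = 0.480 in edgeR). For double-positive minus microglia 0 of 40 were called (0.00302% of all genes), and for CaMKII positive minus double-positive 0 of 40 (0.0151% of all genes), with 0 members at an unadjusted p under 0.05 in either. DESeq2 was not run on the interactions.

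The populations were then compared with each other in 1 edgeR fit over the 58 libraries with batch and treatment as covariates. CaMKII positive libraries were higher than astrocytes for 38 of 40 members (14.1% of all genes were called higher), and 0 were lower (4.34% of all genes). The median log2FC over the members was 2.99, against −0.03 over all genes. Markers of other cells were higher too in the CaMKII positive libraries: endothelial markers summed to 3599 to 10134 CPM against 142 to 1361 CPM in astrocytes, microglial markers to 483 to 2077 against 152 to 287 CPM, blood leukocyte markers to 13.6 to 129 against 0 to 4.14 CPM, and border macrophage markers to 1.59 to 92.1 against 0 to 2.72 CPM. Oligodendrocyte markers were 293 to 3823 against 128 to 746 CPM, and astrocyte markers were lower, 13683 to 25487 against 36526 to 50858 CPM. Their part in the difference was not tested. In 35 members every CaMKII positive library exceeded every astrocyte library, which was so for 4.56% of all genes. The other 5 were Ifit3b, Oas3, Herc6, Isg20 and Ifi27. All 5 genes of the oligoadenylate synthetase family, whose active enzymes make the activator of RNase L, were higher, with log2FC 4.37 for Oas1a, 4.15 for Oas2, 8.89 for Oas3, 4.66 for Oasl1 and 3.46 for Oasl2. Oas3 had 0 to 32.7 CPM (median 9.55) in CaMKII positive libraries and was at 0 in 15 of 17 astrocyte libraries, where the other 2 held 1 and 11 counts. Mx1, listed with the GTPases, had 1.63 to 30.6 CPM (median 12.5) against at most 0.648 CPM, with 0 counts in 13 of 17 astrocyte libraries, and a log2FC of 7.14 ± 0.52. The fitted values of Oas3 and Mx1 rest on these few astrocyte counts. The smallest differences were those of Herc6, the Isg15 ligase of the mouse, with 16.6 to 56.3 CPM (median 42.3) against 11.6 to 24.8 CPM (median 17.8) and a log2FC of 0.82 ± 0.13, and of Ifi27, with 40.6 to 101 CPM (median 59.3) against 20.2 to 41.0 CPM (median 29.0) and a log2FC of 0.87 ± 0.12. Both had p.adj under the threshold but a log2FC below 1, and in batch 3 alone the log2FC was 1.06 and 1.02.

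**Figure D4:**
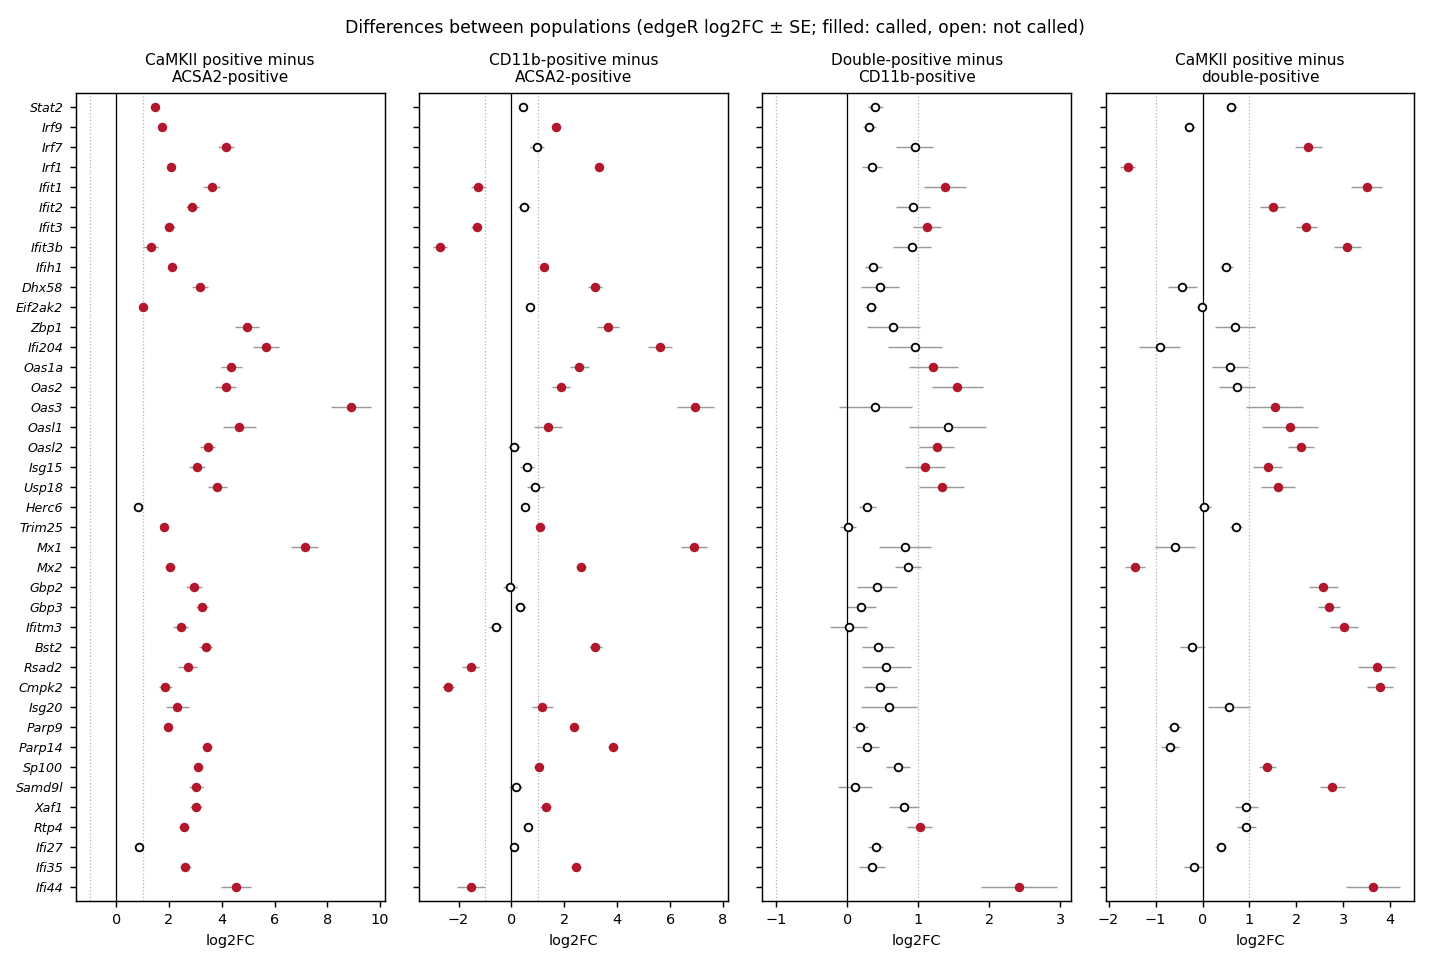
Log2FC with its standard error for each member in 4 contrasts of populations; filled points passed both thresholds and dotted lines mark −1 and 1. The first panel has 38 filled points, all to the right of 0, and the second has 20 to the right and 6 to the left.

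Microglia were higher than astrocytes for 20 of 40 members (21.7% of all genes were called higher) and lower for 6 (32.1% of all genes were called lower), with a median log2FC of 0.99 against −0.24 over all genes. The nucleic acid sensors were higher in 4 of 5: Ifih1, which detects long double-stranded RNA, by 1.23, Dhx58, its regulator, by 3.16, Zbp1, which detects Z-form nucleic acid, by 3.64, and Ifi204, a DNA sensor, by 5.63, whereas Eif2ak2, the kinase that stops translation, had 0.70 ± 0.08 and stayed under the fold threshold. Both ADP-ribosyltransferases were higher, Parp9 by 2.37 and Parp14 by 3.84. So were Bst2, which tethers budding virions, by 3.17, Irf9 by 1.69 and Irf1 by 3.32. Oas3 had 0.5002 to 8.74 CPM (median 2.82) in microglia and a log2FC of 6.96 ± 0.70, and Mx1 had 2.04 to 15.4 CPM (median 9.46) and 6.92 ± 0.49, without overlap with astrocytes in either gene.

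Summed endothelial markers were 49.0 to 158 CPM in microglia and 142 to 1361 CPM in astrocytes, border macrophage markers were 83.6 to 507 against 0 to 2.72 CPM, and blood leukocyte markers were 23.1 to 158 against 0 to 4.14 CPM. Their part in these differences was not tested. The 6 members that were lower in microglia than in astrocytes were Ifit1 (log2FC −1.26 ± 0.29), Ifit3 (−1.32 ± 0.20), Ifit3b (−2.69 ± 0.27), Rsad2 (−1.55 ± 0.34), Cmpk2 (−2.39 ± 0.24) and Ifi44 (−1.53 ± 0.52). Rsad2 is viperin, which makes a chain-terminating nucleotide, and Cmpk2 is a mitochondrial nucleotide kinase whose gene lies beside it. Ifit3b had 0.581 to 4.36 CPM (median 2.57) in microglia and 7.34 to 26.1 CPM (median 13.8) in astrocytes. Cmpk2 had 0.929 to 7.52 CPM (median 2.74) against 9.82 to 21.8 CPM (median 14.8). In both genes all 17 astrocyte libraries lay above all 15 microglial libraries, although the mean over the members ran the other way.

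The double-positive libraries, led by microglial markers, were compared with CD11b-positive microglia. In the fit over all libraries the 40 members had a log2FC above 0, as had 21152 of 33150 genes, and the median was 0.56 against 0.15 over all genes. Trim25 and Ifitm3 were below 0 with RLE size factors (−0.016 and −0.025), with mouse as a block (−0.0096 and −0.20), without mouse 10 (−0.05 and −0.32), in sham mice alone (−0.09 and −0.18) and in batch 3 alone (−0.10 and −0.51). Summed astrocyte markers were 485 to 1455 CPM in double-positive libraries and 199 to 357 CPM in microglia, border macrophage markers were 78.6 to 329 against 83.6 to 507 CPM, and blood leukocyte markers were 3.24 to 49.99 against 23.1 to 158 CPM. Their part in the difference was not tested. Of the 40 members, 9 were called higher (6.37% of all genes were called higher) and 0 lower (1.62% of all genes). They were Ifit1 (1.37), Ifit3 (1.12), Oas1a (1.21), Oas2 (1.55), Oasl2 (1.258), Isg15 (1.09), Usp18 (1.33), which removes Isg15 from its targets, Rtp4 (1.02), a chaperone of taste and odour receptors, and Ifi44 (2.42), a cytoplasmic protein of unclear activity. Oas2 had 3.70 to 45.0 CPM (median 11.6) in double-positive libraries and 1.07 to 13.6 CPM (median 6.53) in microglia, and Ifi44 had 0 to 12.2 CPM (median 2.07) against 0 to 3.05 CPM (median 0.545). Both overlapped, with the highest values in double-positive libraries. Trim25, an E3 ligase that activates RNA sensing, had the smallest difference, 0.01 ± 0.11, with 40.9 to 95.5 CPM (median 60.3) against 49.5 to 81.1 CPM (median 60.9). Ifitm3 was next at 0.02 ± 0.26, with 1.96 to 30.7 CPM (median 7.46) against 3.56 to 20.4 CPM (median 9.25). The count of 9 was 3 in batch 3 alone, 6 without mouse 10 and 13 of 40 without mouse 2.

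CaMKII positive libraries were higher than double-positive libraries for 18 of 40 members (27.7% of all genes were called higher) and lower for 2 (17.5% of all genes were called lower), with a median log2FC of 0.83 against 0.14 over all genes. Endothelial markers were 3599 to 10134 CPM against 45.4 to 590 CPM in the double-positive libraries, astrocyte markers were 13683 to 25487 against 485 to 1455 CPM, and microglial markers were lower, 483 to 2077 against 16926 to 31753 CPM. Their part in the difference was not tested. Cmpk2 (3.78 ± 0.27) and Rsad2 (3.71 ± 0.40) had the largest differences. Cmpk2 had 37.2 to 123 CPM (median 59.2) against 1.70 to 17.4 CPM (median 3.39), and Rsad2 had 31.9 to 96.8 CPM (median 71.9) against 0.762 to 21.7 CPM (median 3.72). The 2 groups did not overlap in either gene. All 4 IFIT genes were higher, Ifit1 by 3.5, Ifit2 by 1.5, Ifit3 by 2.21 and Ifit3b by 3.09, as were Ifitm3 by 3.02, Gbp2 by 2.58, Gbp3 by 2.7, Irf7 by 2.25, Samd9l, a restriction factor of poxviruses, by 2.77, and Sp100 by 1.38. None of the 5 nucleic acid sensors was called in this contrast, nor Xaf1, a proapoptotic protein (0.93), Stat2 (0.62), Ifi35, a modulator of innate signalling (−0.18), or Isg20, an exonuclease (0.56). Irf1 was lower by 1.60 on the log2 scale, with 70.0 to 144 CPM (median 83.6) against 94.4 to 375 CPM (median 252), and the log2FC of Mx2 was −1.43 ± 0.21, with 12.2 to 46.0 CPM (median 22.0) against 16.8 to 104 CPM (median 58.2). Both overlapped between the populations.

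Within CaMKII positive libraries the mean level of the members had a Pearson r of 0.68 with the log2 sum of microglial markers and 0.67 with that of border macrophage markers over 10 libraries, of 0.62 with blood leukocyte markers and of 0.41 with endothelial markers. The libraries differ in batch and depth, and the part of these cells in the level was not tested. The astrocyte libraries held 152 to 287 CPM of microglial markers and 0 to 2.72 CPM of border macrophage markers, with Pf4 at 0 in all of them.

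The level of a mouse in 1 population was set beside its level in another. Between the populations of the caudal cortex, microglia and astrocytes, r was 0.70 and Spearman's rho 0.56 over 15 mice, and r was 0.41 without mice 2 and 13 and 0.36 in the 10 mice of batch 3. Between the populations of the motor cortex, CaMKII positive and double-positive libraries, r was 0.62 and rho 0.57 over 9 mice, 0.55 without mice 2 and 16 and 0.80 in the 8 mice of batch 3. Across the regions, r was −0.07 (rho −0.01) for double-positive libraries and microglia over 14 mice, 0.04 without mice 10 and 18 and 0.15 without mouse 10 alone, and with TMM scaling it was −0.10, and 0.31 without mice 10 and 21. It was −0.66 (rho −0.49) for CaMKII positive libraries and astrocytes over 10 mice, and −0.46 without mice 2 and 8, which left the 8 mice of batch 3 (−0.25 with TMM scaling). Libraries of 1 mouse share the animal and, for each region, the dissociated tissue, and batches differ between mice.

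**Figure D5:**
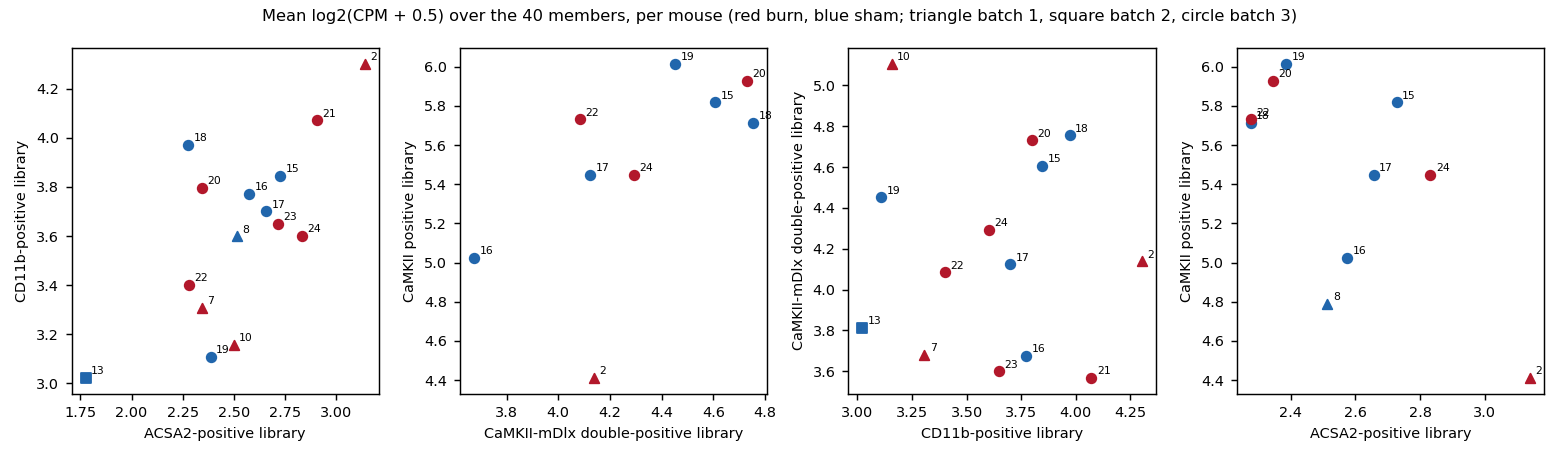
Mean log2(CPM + 0.5) over the 40 members in 2 populations of the same mouse, 1 point per mouse with its number, red for burn and blue for sham, with the batch given by the shape. The first 2 panels pair populations of 1 region and slope upward, with mouse 2 at the top of the first and at the bottom of the second; the last 2 panels pair populations of different regions.

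The other genes of the pathway were read from a list of 52, of which 45 to 48 were tested in a population. None was called after burn in any population. Of the ligands, Ifna1, Ifna2, Ifna4 and Ifne had 0 counts in all 58 libraries, and Ifnb1 had 0 to 0.841 CPM in double-positive and 0 to 0.265 CPM in microglial libraries and 0 counts in the others. Ifng had 0 to 4.42 CPM in CaMKII positive libraries, with 0 counts in 4 of 10, 0 to 1.47 CPM in microglia, 0 to 0.592 CPM in double-positive libraries and 0 counts in astrocytes. A count of 0 allows up to 3 counts per library. Ifnar1 had 281 ± 59.4 CPM (SD, n = 10) in CaMKII positive libraries and 132 to 135 CPM on average in the other populations. Ifnar2 was higher in microglia than in astrocytes, 94.5 ± 5.83 against 24.2 ± 4.71 CPM (log2FC 1.90 ± 0.09), and so was Ifngr1, 408 ± 59.6 against 43.1 ± 4.53 CPM (3.18 ± 0.11).

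Of the 48 pathway genes tested jointly, 34 were called higher (21.7% of all genes) and 1 lower (32.1% of all genes) in microglia than in astrocytes, the 1 being Tlr3, a sensor of double-stranded RNA, at −1.62 ± 0.10. CaMKII positive libraries were higher than astrocytes in 31 (14.1% of all genes) and lower in 0 (4.34% of all genes). Against double-positive libraries they were lower in 16 (17.5% of all genes) and higher in 4 (27.7% of all genes), with 8 of the 12 upstream sensors and adaptors among the 16, such as Sting1 (−3.96 ± 0.25), Cgas (−3.00 ± 0.38), Tlr7 (−4.46 ± 0.41) and Irf5 (−3.84 ± 0.32), all part of nucleic acid sensing in myeloid cells. Ifngr1 (−2.46 ± 0.13) was lower too, whereas 18 of the 40 members themselves were higher in the same contrast. Double-positive libraries were called higher than microglia in 3 of 48 pathway genes (6.37% of all genes) and lower in 1 of 48 (1.62% of all genes), shares near the background, with Oas1g (1.59), Ifi213 (1.27) and Ifnb1 (3.31, on the few counts above) higher and Ifitm2 (−1.86) lower.

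Some members share sequence with other genes, so the split of reads between them is uncertain. Of all 50-base windows of their transcripts, 57.6% of Oas1a were shared with Oas1g or Oas1b, 51.2% of Ifit3 with Ifit3b and 45.0% of Ifit3b with mainly Ifit3. The shares were 20.0% for Ifi204, 12.5% for Herc6, 11.6% for Rtp4 and 10.0% for Ifitm3, and below 10% for the other 33. Exons of 9 members overlap exons on the opposite strand, among them Parp9 with its neighbour Dtx3l over 458 bases. The strand setting of the counting is not given in the sources used here.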

How the data were processed

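RNA of sorted cells was sequenced as rRNA-depleted, stranded total RNA. The deposited values are raw counts per gene in each library: the authors trimmed reads with fastp, aligned them with STAR and counted them with GenomicAlignments (the submitters' processing notes name GRCm39 and mm10), and the strand setting of the counting is not given in the sources used here. Symbols were taken from GENCODE M21, which matched 52073 of 56980 identifiers.

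Of 63 libraries (18 mice), 58 (17 mice) entered the comparisons. Mouse 3 (skin ulceration) and double-positive mouse 8 (331215 counts) were left out, as in the study. The median total was 24339895.5 counts. Counts were tested with edgeR 4.0.16 (quasi-likelihood, TMM, genes with at least 10 counts in total, Benjamini-Hochberg adjustment over all genes tested) in R 4.3.3, with batch as a covariate, and calls needed p.adj ≤ 0.05 and an absolute log2FC ≥ 1. DESeq2 1.42.0 was an alternative for burn. CPM scale each count by the library total, and CPM per kilobase used merged GENCODE exons. Scripts were tested on simulated data.

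The members and lists were chosen with earlier results of these data known. All 40 members are named. Values by library are given for the 3 members with the smallest p after burn in each population, the 2 with the highest level per kilobase in each population, and the 2 highest and 2 lowest log2FC in each contrast of populations. Pathway genes other than Ifnar1, Ifnar2 and Ifngr1 are named only as examples of those called, some results of this list are not reported here, and the ligands were named after their counts were seen.

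Mouse numbers pair libraries because the same animal gave several populations. Deviations from the group means of libraries with the same number correlated with a median r of 0.057 (microglia and astrocytes, 15 mice), 0.048 (double-positive and microglia, 14), −0.0091 (CaMKII and astrocytes, 10) and 0.060 (CaMKII and double-positive, 9). Groups are separate animals. Promoter entries were matched by symbol for 29 members, and the annotated start of 26 of 36 promoters was found in GENCODE transcripts. Alternatives were other scalings, filters, batch 3 alone, sham mice alone, a replicate block, all deposited libraries and leaving out each mouse.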

Additional observations from a re-analysis of the deposited data

Results flagged for a closer look

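Each group of burn or sham libraries was searched for 1 library far from the others. This was done for the named members with the smallest p after burn and for the mean level of the members. Such a library was found in 6 of 32 groups, always for a single member. A chance rate of 1 in 20 holds for independent, normally spread values. Here the CPM of members were not log-scaled, the members were picked by p, and some libraries were flagged repeatedly, so the count cannot be set against it.

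Double-positive burn mouse 10 had 54.7 CPM of Irf7, with the other burn mice at 8.66 to 28.2 CPM, and 23.6 CPM of Gbp3, with the others at 6.93 to 15.0 CPM. Batch 1 held only burn mice in this population, so this library could not move the log2FC of burn. Microglial burn mouse 2 had 63.9 CPM of Gbp2, with the others at 6.91 to 12.1 CPM, and 87.9 CPM of Parp9, with the others at 52.9 to 68.0 CPM. Without it the log2FC was 0.24 for Gbp2 and −0.20 for Parp9. Astrocyte burn mouse 2 had 22.9 CPM of Parp14, with the others at 6.16 to 14.4 CPM, and the log2FC was 0.57 without it. Astrocyte burn mouse 23 had 21.2 CPM of Ifit3b, with the others at 7.34 to 14.2 CPM, and the log2FC was −0.66 without it.

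The astrocyte library of burn mouse 3, which was left out of the comparisons for skin ulceration, had a mean log2(CPM + 0.5) over the members of 3.14, above the 8 sham libraries (1.59 to 2.73). In it 17 of 40 members exceeded every sham library and 0 were below, against 9.58% and 8.03% of 16172 genes. The other libraries of this mouse had 0 members above and 11 below (CaMKII positive; 4.73% and 10.9% of genes), 2 above and 6 below (double-positive; 8.84% and 9.89%) and 8 above and 2 below (microglia; 15.9% and 10.5%).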

How the results depend on the processing

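The burn counts of 0 members were 0 under DESeq2, the other scalings and filters, no minimum fold change, no batch term, batch 3 alone, all deposited libraries and without each mouse in turn, and no called log2FC of the members with values by library changed direction in any alternative run. Some uncalled values did: the median burn log2FC of the members in CaMKII positive libraries (−0.11) was 0.02 in batch 3 alone, that in microglia (0.0069) was −0.00094 with RLE size factors and −0.0059 with library size only, and r for double-positive and microglia (−0.07) was 0.15 without mouse 10. Trim25 and Ifitm3 in double-positive minus microglia (0.01 and 0.02) were −0.10 and −0.51 in batch 3 alone and −0.0096 and −0.20 with the replicate block, and Irf1 after burn in double-positive libraries (−0.39) was 0.071 with all deposited libraries. The count for double-positive minus microglia was 3 in batch 3 alone. Leaving out each mouse in turn gave 25 to 27 members called for microglia minus astrocytes, 6 to 13 for double-positive minus microglia, 37 to 38 for CaMKII minus astrocytes and 19 to 22 for CaMKII minus double-positive. With the replicate block the counts were 27, 9, 37 and 20 in the same order, and the interactions stayed at 0. Blocking or pairing by mouse changed no other count by over 1.5 times. The burn contrast within a population has 1 library per mouse, so no pairing applied to it. Scaling by library size only moved the median of all genes by 0.17 for CaMKII minus astrocytes and 0.12 for CaMKII minus double-positive, with 39 and 22 members called. Oas2 in double-positive minus microglia was no longer called in sham mice alone (log2FC 1.80) or batch 3 alone (1.258). Without each mouse in turn the mean level ranged from 5.37 to 5.55 in CaMKII positive libraries, 4.10 to 4.20 in double-positive libraries, 2.43 to 2.53 in astrocytes and 3.57 to 3.66 in microglia, and r ranged from 0.60 to 0.81 for microglia and astrocytes, 0.55 to 0.80 for CaMKII and double-positive, −0.20 to 0.15 for double-positive and microglia and −0.77 to −0.34 for CaMKII and astrocytes. With TMM-scaled levels r was 0.73, 0.51, −0.10 and −0.65 in the same order of pairs, the second being 0.36 without mouse 16. Among all genes, burn calls rose from 0 to 14 in double-positive libraries and 4 in astrocytes with no filter, and to 136 in double-positive libraries with all deposited libraries. Low counts limit Oas3, Mx1 and Ifi44 in astrocytes.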
